A study of Mus musculus with 71 samples.

Results

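γδ IELs sorted from the ileum were compared with γδ IELs sorted from the duodenum of adult wild-type (WT) mice. Genes that differed were then divided by whether their level in single γδ IELs was near the bulk level or far below it. The comparison used 8 of the 71 samples of the series, chosen by their labels, namely 4 bulk RNA-seq libraries from WT ileum and 4 from WT duodenum. All mice were C57BL/6, and the labels give an age of 10 weeks for the γδ IEL libraries. They were untreated, female, cohoused WT littermates of Btnl2-knockout (Btnl2-KO) animals. The small intestine was cut into 3 equal lengths, and each library was a pool of 2 mice sorted as CD45+ TCRβ- TCRγδ+ cells. Other libraries served as reference points. These were 4 WT jejunal γδ IEL libraries and 3 ileal and 3 duodenal γδ IEL libraries from Btnl2-KO mice (homozygous for a null allele with a LacZ insertion). They also included WT intestinal epithelial cell (IEC) libraries from duodenum (n = 3), jejunum (n = 3) and ileum (n = 2), and 1 WT single-cell library each from duodenum and ileum. The labels of the single-cell libraries give 8 to 10 weeks and those of the IEC libraries 7 weeks, so the IECs came from younger mice. Single cells are described as a pooled remainder of the sorted samples, so they cannot be taken as an independent set of mice.

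γδ IELs are T cells that live between the epithelial cells of the gut, held there by the integrin CD103 (Itgae), and most carry CD8αα and stores of granzymes. The epithelium around them differs along the gut: duodenal enterocytes absorb fat, iron and calcium, ileal enterocytes take up bile acids, and Paneth cells at the base of the crypts secrete α-defensins and lysozyme. RNA of these neighbours can enter a sorted T cell preparation with attached cells, debris or free RNA, so each difference between segments raised the question of which cell held the transcript. In bulk samples, fewer cells of a type and less RNA per cell cannot be told apart.

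The WT libraries held 13444958 to 19703271 counts in the duodenum and 15144045 to 18519614 in the ileum. Levels are given as CPM (counts scaled to a common library size), which are not corrected for gene length. The 10 measured γδ IEL identity genes, among them Cd3e, Cd3g, Cd8a and Itgae, summed to 14706 to 18596 CPM in the duodenum and 12942 to 19357 CPM in the ileum, and TCR gene segments were not measured in the table. The B cell gene Ms4a1 had at most 8 counts, and the macrophage genes Csf1r and C1qa at most 10, in any of the 8 libraries. Other genes listed as markers of other cells were present, though γδ IELs carry some of them as well. B and plasma cell genes, of which only Cd79b was tested, summed to 107 to 137 CPM in the duodenum and 96.8 to 144 CPM in the ileum. In single γδ IELs they summed to 94.7 and 97.1 CPM. In duodenum and ileum, αβ T cell genes summed to 46.6 to 101 and 66.1 to 103 CPM. Mast cell genes, among them Kit, summed to 67.3 to 94.2 and 66.9 to 107 CPM, and myeloid genes to 8.53 to 13.9 and 9.75 to 25.4 CPM. Of the tested genes of the B and plasma cell (1), myeloid (3), αβ T cell (4), mast cell (5) and stromal (1) lists, 0 were called between the segments, and 2 had an unadjusted p below 0.05 (edgeR). Over all genes tested, 2.16% were called and 10.3% had such a p. Epithelial genes were present in every library. The 12 pan-epithelial genes summed to 4352, 3839, 3018 and 2735 CPM in the 4 duodenal libraries and to 2944, 7332, 6383 and 5433 CPM in the 4 ileal libraries. Ileal replicate 1 thus lay with the duodenal libraries and the other 3 ileal libraries above them. The mean log2(CPM + 1) of the list was 7.63 ± 0.30 in the duodenum and 8.09 ± 0.57 in the ileum (SD, n = 4 each), a difference of 0.46 (two-sided exact permutation test, p = 0.2, smallest possible p 0.0286).

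Of 12535 genes tested, 144 (1.15%) were higher and 127 (1.01%) were lower in ileal γδ IEL libraries, at an adjusted p below 0.05 and a fold change above 1.5 (edgeR quasi-likelihood test with Benjamini-Hochberg adjustment). Without ileal replicate 1 these counts were 429 and 189, without ileal replicate 3 they were 88 and 68, and without ileal replicate 4 they were 93 and 81. Without duodenal replicate 1 the count of lower genes was 81. At an unadjusted p below 0.05, 1295 genes (10.3%) differed, and 756 genes (6.03%) had no overlap between the 4 ileal and 4 duodenal values. The p-values measure the spread between pools of mice.

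The single-cell libraries separated most of these genes. Cells were kept when at least 500 genes were detected and mitochondrial UMIs were at most 10%, and 3931 duodenal and 3712 ileal cells remained, with a median of 5105 and 5041 UMIs (unique transcript tags) and of 2068 and 2014 genes. A transcript of Cd3 or Ptprc was found in 99.9% and 99.7% of them. Cells with at least 3 of the 12 pan-epithelial genes, 36 duodenal (0.916%) and 64 ileal (1.72%), were set aside. No transcript of Cd3 or Ptprc was found in 5 of the 36 and in 11 of the 64. The 2 libraries shared 22 cell barcodes. The remaining cells were summed, and each gene's level in them was set against its level in bulk. A gene was called held by single γδ IELs when the single-cell level reached at least 2 CPM and was within 4-fold of the higher bulk mean or above it, and near-absent when it was at least 8-fold below. Near-absent is relative to the bulk level, so such a gene can still be well detected in single cells, as Cd74 was. The bulk level also entered the calls, so class and call are not independent. Bulk reads covered whole transcripts and single-cell tags covered the 5′ ends, so this ratio is a coarse sorting of genes.

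Most differences between the segments lay in genes whose level in single γδ IELs was far below their bulk level. Of the 271 genes called, 181 (66.8%) were near-absent from single γδ IELs, 37 (13.7%) were held, 52 were undecided (29 higher, 1.63% of 1780, and 23 lower, 1.29%) and 1 was not in the single-cell table. Among the 939 near-absent genes tested, 96 (10.2%) were higher and 85 (9.05%) lower in the ileum. Among the 9765 held genes, 19 (0.195%) were higher and 18 (0.184%) lower. The plot of bulk differences against presence in single cells shows these 37 genes at its right. By the IEC comparison described next, 16 of them leaned to γδ IELs, 19 were at similar levels in IECs and 2 leaned to the epithelium.

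**Figure D1:**
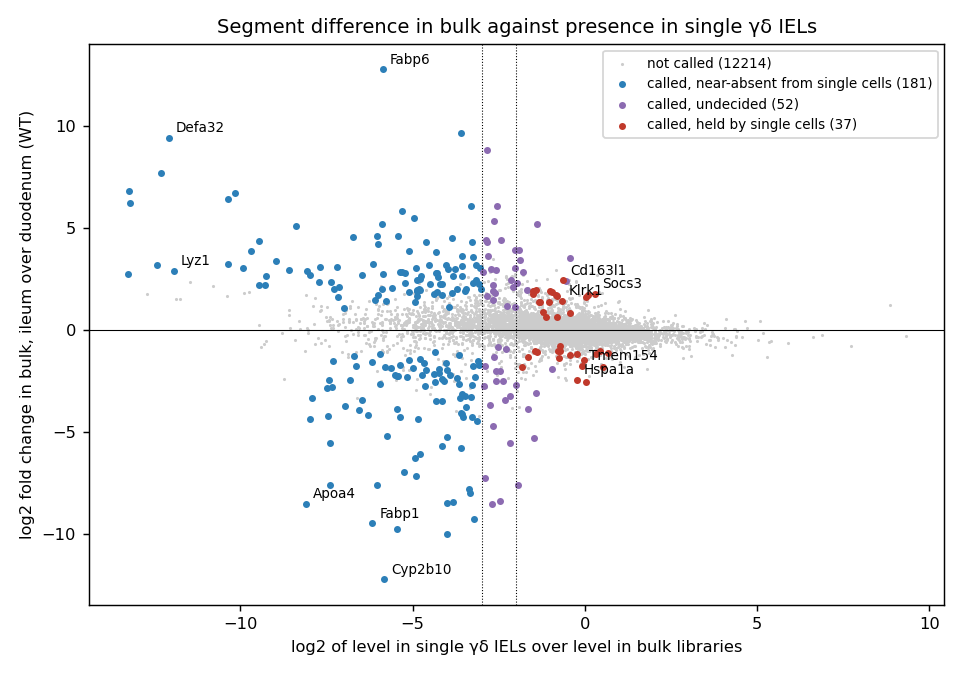
Each point is a gene tested in WT bulk libraries, with the log2 ratio of its level in single γδ IELs to its bulk level on the x axis and its log2 fold change, ileum over duodenum, on the y axis, coloured by whether it was called and by class. The 181 called genes that were near-absent from single cells lie at the left and span the larger fold changes in both directions, while the 37 called genes held by single cells lie at the right.

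A comparison with IEC libraries alone sorted the calls less finely. By the ratio of the highest IEC segment mean to the highest γδ IEL segment mean, with a threshold of 4-fold, 19 of 2667 IEL-leaning genes were higher and 14 lower in the ileum, 28 and 34 of 1147 epithelium-leaning genes, and 97 and 79 of 8721 genes at similar levels in both. Of the 33 called genes that leaned to γδ IELs, only 16 were held by single cells and 15 were near-absent, among them Paneth cell genes whose bulk level was higher in sorted γδ IEL libraries than in IEC libraries. An example is Defa20, with means of 4788 CPM in ileal γδ IEL libraries, 471 CPM in ileal IECs and 0 UMIs in the single cells left once those with epithelial genes were set aside. The IEL-leaning counts fell to 11 higher without duodenal replicate 1, ileal replicate 3 or ileal replicate 4. The lower count was 52 without ileal replicate 1, 5 without ileal replicate 3 and 9 without ileal replicate 4. The epithelium-leaning counts fell to 15 higher and 20 lower without ileal replicate 3 and to 18 and 21 without ileal replicate 4, and 102 were higher without ileal replicate 1. Without duodenal replicate 2 they were 16 and 22, without duodenal replicate 4 the higher count was 17 and without duodenal replicate 1 the lower count was 21.

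The 37 held genes were called on the 8 bulk values, and all 37 had no overlap between the 4 ileal and 4 duodenal values, compared to 3.82% of the 9765 held genes. The same direction, with a ratio above 1.5, was seen in single cells for 13 of the 19 higher genes and 11 of the 18 lower genes, and for all 24 the counting intervals of the 2 libraries were apart. Over all held genes 1.14% were that much higher and 2.07% that much lower in ileal single cells. For 8 of the 24, however, the 2 CPM that made a gene held were reached in 1 segment only, so their single-cell difference was partly fixed by that rule. These were Cd163l1, Cpm, Ctla2a, Il18rap, Marcksl1, Ryr1 and Wnt11 among the higher genes and Nrcam among the lower ones. Of the genes with at least 2 CPM in both segments, the direction was shared by 6 of 12 higher and 10 of 17 lower genes, compared to 0.599% and 1.56% of 9523 held genes. The single-cell libraries have no replicates, and their intervals cover counting error only. The remaining 13 differed in bulk but by less than 1.5-fold in single cells. The counts of held genes depended on which libraries were used: 61 were higher and 71 lower without ileal replicate 1, and 5 and 6 without ileal replicate 3. The higher count was 10 without duodenal replicate 1, 12 without duodenal replicate 2 or duodenal replicate 4, and 9 without ileal replicate 4. The lower count was 10 without duodenal replicate 1, 9 without duodenal replicate 2 and 11 without ileal replicate 2. In all 16 alternative analyses 10 of the 37 kept their call, namely Frmd5, Tmem154, Tmem273, Ly6a, Socs3, Casp4, Casp6, Ckb, Dhrs1 and Rasd1.

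**Figure D2:**
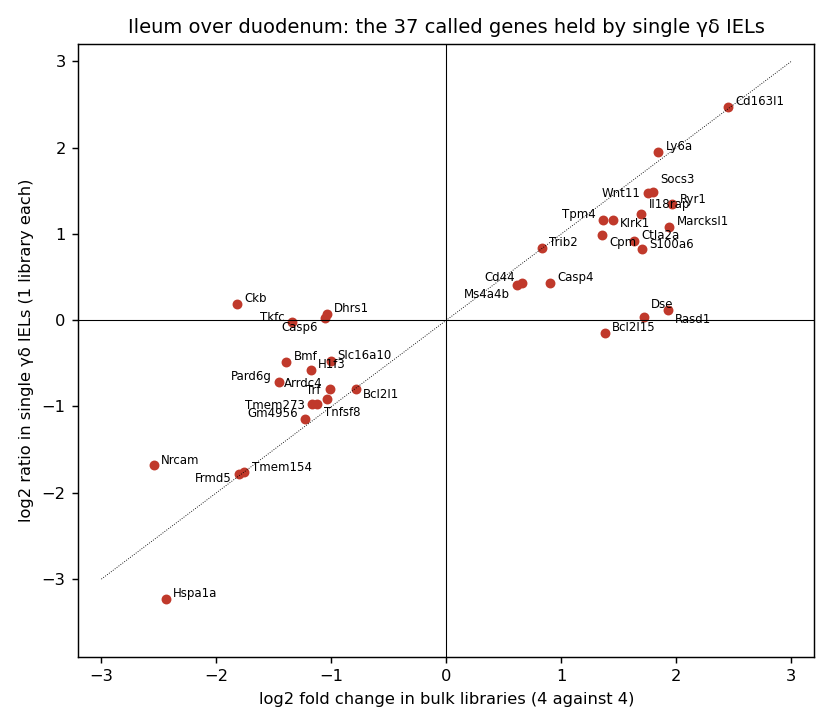
The 37 called genes that single γδ IELs held, with the bulk log2 fold change (4 ileal against 4 duodenal WT libraries) on the x axis and the log2 ratio of ileal to duodenal level in single γδ IELs (1 library each) on the y axis. In 24 genes the single-cell ratio exceeds 1.5-fold in the bulk direction, and in the other 13, among them Ckb, Casp6 and Rasd1, it stays within 1.5-fold.

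Lower in ileal γδ IELs were the inducible heat shock genes Hspa1a and Hspa1b, neighbouring genes that encode the stress-induced chaperone HSP70. The level of Hspa1a was 98.4, 128, 88.0 and 48.5 CPM in the 4 duodenal libraries and 10.5, 41.4, 9.13 and 6.26 CPM in the 4 ileal libraries. Every ileal library was below every duodenal one, with ileal replicate 2 nearest to them. The log2 fold change was -2.44 ± 0.53 (SE, edgeR adjusted p = 0.0369), and single cells held 76.9 CPM in the duodenum and 7.76 CPM in the ileum (95% exact Poisson intervals 73.3 to 80.8 and 6.58 to 9.08). Hspa1b fell by 2.49 on the log2 scale (edgeR adjusted p = 0.0333), and its single-cell level was 29.1 and 3.12 CPM. Its call was lost without duodenal replicate 1, 2 or 3 or ileal replicate 3 or 4 (adjusted p from 0.0584 to 0.133). The jejunal mean of Hspa1a, 38.9 ± 9.30 CPM (SD, n = 4, scaled over all 22 γδ IEL libraries), lay between the others, and IEC means were 2.27 CPM in the duodenum and 1.84 CPM in the ileum. The call on Hspa1a was lost without any one of 6 libraries (all but duodenal replicate 4 and ileal replicate 2), with adjusted p up to 0.137 without ileal replicate 3, while the log2 fold change stayed between -2.15 and -3.39. The calls on Hspa1a and Hspa1b were also lost with scaling by IEL-leaning genes, and that on Hspa1a in the fit over all 22 γδ IEL libraries.

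The coding sequences of Hspa1a and Hspa1b are nearly identical, so the split of reads between them is uncertain, and their promoters are nearly identical as well. The 250 bases before each start site (RefSeq, mouse build GRCm38.p6, minus strand, chr17:34972157-34972406 for Hspa1a and chr17:34959239-34959488 for Hspa1b) are shown because these were the 2 stress genes that fell, and they differ at 3 bases (98.8% identity). Capitals mark a pair of inverted heat shock element units, searched as GAANNTTC, which is its own reverse complement.
Hspa1a: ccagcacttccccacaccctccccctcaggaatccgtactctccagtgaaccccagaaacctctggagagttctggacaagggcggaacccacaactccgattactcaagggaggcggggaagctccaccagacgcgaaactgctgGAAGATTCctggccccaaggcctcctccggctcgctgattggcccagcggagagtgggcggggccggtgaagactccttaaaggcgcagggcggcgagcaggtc
Hspa1b: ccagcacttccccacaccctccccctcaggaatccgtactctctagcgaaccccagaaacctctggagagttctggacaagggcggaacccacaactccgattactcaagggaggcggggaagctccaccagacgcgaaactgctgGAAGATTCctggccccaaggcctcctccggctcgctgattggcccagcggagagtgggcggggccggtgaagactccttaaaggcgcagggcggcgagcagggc
The match begins 104 bases before the start site in both, and 2199 of 32851 promoters of this length (6.69%) hold the motif. Neither of the 2 listed start sites of Dnajb1 or of Hsph1 held it. Only this exact arrangement was searched, and Hspa8 and Hsp90aa1 had no listed promoter. The search therefore cannot separate heat shock genes that fell from those that did not. Other heat shock genes, looked up after these values were seen, had smaller fold changes. Dnajb1, a co-chaperone, had means of 173 and 150 CPM in duodenum and ileum (log2 fold change -0.20, edgeR adjusted p = 0.68), and Hsph1, Hspa8 and Hsp90aa1 had log2 fold changes between -0.08 and 0.08 (adjusted p from 0.939 to 0.997). In single cells Dnajb1 was at 159 and 117 CPM, Hsph1 at 54.8 and 35.0 CPM, Hspa8 at 1071 and 1231 CPM and Hsp90aa1 at 319 and 286 CPM. Of these 4, only Hsph1 thus differed by more than 1.5-fold in single cells, in the direction of Hspa1a.

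The lower genes that held under every alternative and in single cells were Tmem154, Frmd5 and Tmem273, which encode membrane-associated proteins. Tmem154 was at 32.9, 46.5, 37.8 and 41.6 CPM in the duodenum and 15.7, 9.38, 7.51 and 14.3 CPM in the ileum. The 2 groups were well apart, and the log2 fold change was -1.76 ± 0.24 (SE, edgeR adjusted p = 0.002). In single cells Tmem154 stood at 37.4 CPM (interval 34.9 to 40.1) in the duodenum and 10.7 CPM (9.29 to 12.2) in the ileum, and IECs had under 1 CPM, namely 0.858 and 0.861. Frmd5, whose product has a FERM domain that links membranes to the cytoskeleton, was at 9.21, 12.2, 8.47 and 10.2 CPM in the duodenum and 4.09, 2.28, 2.27 and 2.78 CPM in the ileum (log2 fold change -1.81 ± 0.27, edgeR adjusted p = 0.00417). Its single-cell level was 14.6 and 3.88 CPM, so bulk and single-cell levels were close in both segments. Tmem273 fell by 1.17 on the log2 scale, from a mean of 83.4 ± 13.0 to 37.1 ± 6.80 CPM (SD, n = 4 each; edgeR adjusted p = 0.00344), and from 71.2 to 36.1 CPM in single cells.

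Other held genes that fell in the ileum, in bulk and by more than 1.5-fold in single cells, included Nrcam, a cell adhesion molecule, Tnfsf8, which encodes CD30 ligand, Trf, which encodes the iron carrier transferrin, and Bcl2l1, which encodes the survival protein BCL-XL. Nrcam fell from 4.67 ± 1.56 to 0.777 ± 0.620 CPM (SD, n = 4 each). Tnfsf8 was at 18.1, 22.7, 24.8 and 28.3 CPM in the duodenum and 10.4, 8.48, 8.54 and 15.4 CPM in the ileum, and at 37.6 and 19.0 CPM in single cells. Trf was between 53.2 and 60.8 CPM in the duodenum and between 17.9 and 36.9 CPM in the ileum. Bcl2l1 was between 26.2 and 33.4 CPM in the duodenum and between 12.2 and 21.0 CPM in the ileum, and its single-cell levels were 17.8 and 10.0 CPM. The edgeR adjusted p-values were 0.0336 for Nrcam, 0.027 for Tnfsf8, 0.0225 for Trf and 0.0481 for Bcl2l1. Each of these 4 calls was lost in 5 to 7 of the 8 analyses that left out 1 library, among them those without duodenal replicate 2, duodenal replicate 4, ileal replicate 2 or ileal replicate 3, with the adjusted p at most 0.144. Nrcam and Trf also lost it without duodenal replicate 1, Tnfsf8 without duodenal replicate 3, and Bcl2l1 without either of these or ileal replicate 4. The unnamed gene model Gm4956 (means of 70.02 and 29.9 CPM, edgeR adjusted p = 0.0109) and Arrdc4, an arrestin-like gene (47.7 and 23.6 CPM, adjusted p = 0.0111), lost the call only without ileal replicate 3 among these 8, at adjusted p of 0.0532 each.

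Of the genes of the lymphocyte lists, 3 rose in ileal γδ IELs, namely Klrk1, Il18rap and Cd44. Klrk1, which encodes the activating receptor NKG2D, was at 4.47, 9.08, 9.75 and 3.66 CPM in the duodenum and 17.4, 14.8, 24.1 and 18.0 CPM in the ileum. The duodenal values formed a lower and an upper pair, and all 4 ileal values were above them. The log2 fold change was 1.45 ± 0.32 (SE, edgeR adjusted p = 0.037), and single cells held 4.82 CPM (interval 3.94 to 5.85) in the duodenum and 11.4 CPM (10.0 to 13.0) in the ileum. Il18rap, a subunit of the interleukin-18 receptor, was at 1.32, 1.85, 1.01 and 1.07 CPM in the duodenum and 2.51, 4.27, 4.27 and 5.99 CPM in the ileum (log2 fold change 1.69, edgeR adjusted p = 0.0341). It was low in every library, and its single-cell level was 0.655 and 2.22 CPM. Cd44, a receptor for hyaluronan that marks antigen-experienced T cells, was between 30.3 and 41.5 CPM in the duodenum and between 52.5 and 59.9 CPM in the ileum (edgeR adjusted p = 0.0274), and its single-cell ratio was below 1.5-fold, at 22.9 and 31.1 CPM. All 3 calls were lost without duodenal replicate 1, duodenal replicate 4, ileal replicate 3 or ileal replicate 4, with adjusted p from 0.0742 to 0.139. That of Il18rap was also lost without duodenal replicate 3 or ileal replicate 2, and that of Cd44 without duodenal replicate 2 or ileal replicate 2 (0.0741 to 0.0984). All 3 calls were also lost with scaling by IEL-leaning genes and with the pan-epithelial level as a covariate. That of Klrk1 was lost in the fit over all 22 γδ IEL libraries as well, and its edgeR adjusted p reached 0.283 among the alternatives. In the Btnl2-KO libraries, which come from other mice, the ileal means were again higher: 24.7 against 4.92 CPM for Klrk1, 5.18 against 0.933 CPM for Il18rap and 61.8 against 33.6 CPM for Cd44. These 3 genes were, however, not called between the segments in KO.

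The higher genes that held under every alternative and in single cells were Ly6a and Socs3. Ly6a, which encodes the interferon-inducible surface antigen Sca-1, was at 6.90, 5.13, 4.90 and 7.46 CPM in the duodenum and 22.2, 14.3, 21.9 and 28.8 CPM in the ileum. The duodenal values lay close together and below every ileal one, with a log2 fold change of 1.84 ± 0.25 (SE, edgeR adjusted p = 0.00198). Its single-cell level was 2.48 CPM (interval 1.86 to 3.25) and 10.98 CPM (9.57 to 12.5), and reads of close paralogs could contribute. Socs3, a feedback inhibitor of cytokine signalling through STAT3, was at 5.26, 5.69, 8.79 and 7.69 CPM in the duodenum and 27.8, 14.2, 15.7 and 37.4 CPM in the ileum (log2 fold change 1.79 ± 0.32, edgeR adjusted p = 0.012). Single cells held 10.1 and 29.2 CPM of Socs3. IECs showed the same direction for both genes, with means of 1.68 and 9.66 CPM for Ly6a and 7.22 and 24.3 CPM for Socs3 in duodenum and ileum.

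Cd163l1, a scavenger receptor known from γδ T cells, was at most 0.869 CPM in the duodenum and at least 2.33 CPM in the ileum (log2 fold change 2.45 ± 0.40, SE; edgeR adjusted p = 0.00683). No UMI was found in the duodenal single cells, for which the upper 95% limit is 0.173 CPM, and 45 UMIs were found in the ileal ones (2.27 CPM, interval 1.65 to 3.03). It kept its call without any one library and lost it in a fit over all 22 γδ IEL libraries (adjusted p = 0.126). IECs had under 0.02 CPM, namely 0.0154 and 0.0182. Ryr1, a calcium release channel, rose from 2.54 ± 1.05 to 9.90 ± 2.995 CPM (SD, n = 4 each), and Wnt11, a secreted Wnt ligand, from 2.40 ± 1.22 to 8.13 ± 2.39 CPM. Both leaned to γδ IELs, with IEC means of at most 0.386 CPM, and single cells showed 1.03 and 3.38 CPM for Ryr1 and 0.608 and 2.57 CPM for Wnt11. The edgeR adjusted p was 0.0167 for Ryr1 and 0.038 for Wnt11, and both calls were lost without ileal replicate 3 or 4 (0.0525 to 0.121), that of Wnt11 also without duodenal replicate 1, 2 or 4. Tpm4, a tropomyosin, rose from 35.4 to 91.1 CPM, and S100a6, a calcium-binding protein, from 9.25 to 29.98 CPM (edgeR adjusted p 0.015 and 0.0137), and they lost the call only without ileal replicate 3 among the analyses that left out 1 library (0.0581 and 0.056). Both were also higher in ileal IECs.

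**Figure D3:**
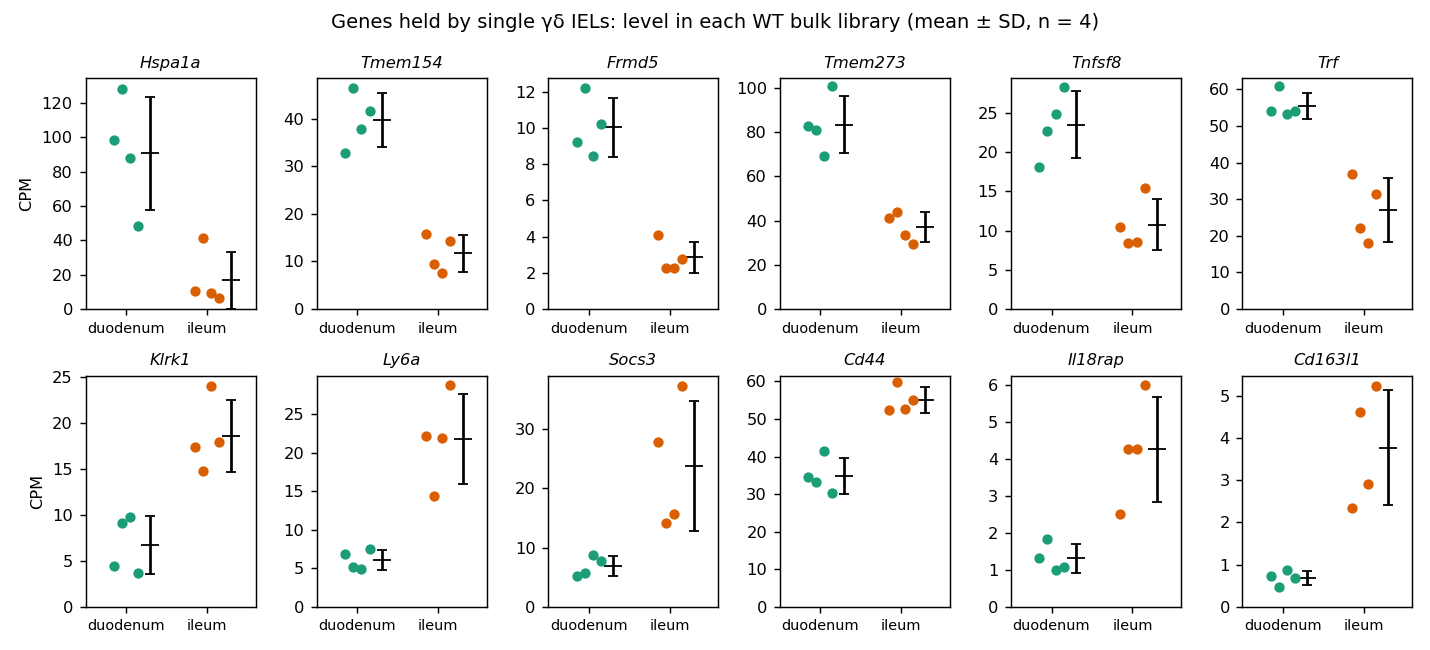
Level in CPM (y axis, from 0) of 12 genes held by single γδ IELs in each of the 4 duodenal and 4 ileal WT bulk libraries (points), with the mean and SD. Tmem154, Frmd5 and Hspa1a sit higher in the duodenum, and Klrk1, Ly6a and Socs3 higher in the ileum, with no overlap between segments.

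For 13 held genes the difference between bulk libraries was not matched by a difference above 1.5-fold in single cells. Some of them moved in the bulk direction by less, such as Cd44 (22.9 and 31.1 CPM in duodenal and ileal single cells) and Slc16a10 (19.1 and 13.6 CPM). Others, such as Ckb, Casp6 and Dhrs1, did not. Ckb, a creatine kinase, was at 215, 140, 99.0 and 155 CPM in the duodenum and 52.2, 35.4, 40.5 and 43.9 CPM in the ileum. The ileal libraries lay close together, all below the lowest duodenal library, and the log2 fold change of -1.82 ± 0.22 (SE, edgeR adjusted p = 0.00107) was called in every alternative. Single cells, in contrast, held 37.4 CPM (interval 34.9 to 40.1) in the duodenum and 42.6 CPM (39.8 to 45.6) in the ileum, levels near the ileal bulk libraries. IEC means were 136 CPM in the duodenum and 12.8 CPM in the ileum. Casp6, an executioner caspase, and Dhrs1, a dehydrogenase, followed the same pattern, with bulk means of 104 and 50.1 CPM and of 68.2 and 33.2 CPM, single-cell levels of 38.5 and 39.1 CPM and of 23.7 and 24.9 CPM, and IEC means of 131 and 17.6 CPM and of 119 and 21.7 CPM. In the other direction, Bcl2l15 rose from 19.0 to 49.2 CPM in bulk, was at 23.7 and 21.3 CPM in single cells, and was at 29.5 and 72.0 CPM in IECs (edgeR adjusted p = 0.0168, and 0.0592 or 0.0707 without duodenal replicate 2 or ileal replicate 3). The part of epithelial RNA in these bulk differences was not tested. Rasd1, a small GTPase, rose from 1.95 to 7.49 CPM in bulk (edgeR adjusted p = 0.0069) without such a difference in IECs (1.69 and 2.02 CPM) or in single cells (2.11 and 2.32 CPM), and Casp4, an inflammatory caspase, rose from 13.8 to 25.8 CPM (adjusted p = 0.00812), with 7.91 and 10.9 CPM in single cells. Over all held calls, IECs differed by more than 1.5-fold in the same direction for 10 of 19 higher and 6 of 18 lower genes, compared to 6.70% and 5.13% of held genes tested.

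Over 12 lists of lymphocyte genes (identity, cytolytic, NK receptor, ITAM signalling, homing and retention, transcription factor, inhibitory and costimulatory, cytokine receptor, cytokine and chemokine, interferon-induced, AHR pathway and immediate early genes), 199 of 217 genes passed the count filter. Of these, 3 rose in the ileum (Klrk1, Il18rap and Cd44) and none fell (1.51% called, compared to 2.16% of all genes tested in either direction). Of the 172 that single cells held, these 3 were 1.74%, compared to 0.379% of all held genes. At an unadjusted p below 0.05 there were 33 (16.6%), 26 higher and 7 lower, compared to 10.3% of all genes. The median log2 fold change was -0.03, compared to -0.01 over all genes tested, and 165 of the 199 were within 1.5-fold.

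No gene of the identity list (10 tested), the cytolytic list (13) or the transcription factor list (29) was called, and 0, 1 and 2 of them reached an unadjusted p below 0.05. Over all genes tested these shares were 2.16% and 10.3%, so lists this short would hold few calls in any case. Cd3e was at a mean of 1164 ± 192 CPM in the duodenum and 1106 ± 320 CPM in the ileum (SD, n = 4 each), and Itgae, which encodes CD103, was at 1103 and 1099 CPM. The granzyme gene Gzma was at 23958, 19434, 19759 and 25347 CPM in the duodenum and 22562, 16871, 20490 and 20379 CPM in the ileum. These ranges overlapped in part (log2 fold change -0.14, edgeR adjusted p = 0.901). Gzmb had a log2 fold change of 0.25 and Prf1, which encodes perforin, of 0.08, with adjusted p of 0.833 and 0.945. In the interferon-induced list 0 of 31 genes were called and in the AHR list, for the aryl hydrocarbon receptor that IELs need for their upkeep, 0 of 5, and 2 and 1 of them reached an unadjusted p below 0.05. The same shares over all genes apply to these lists.

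In the other lymphocyte lists several genes had large fold changes and missed the threshold. Among 21 homing and retention genes, 1 was called and 8 had an unadjusted p below 0.05, compared to 2.16% and 10.3% of all genes tested. S1pr1, the receptor by which T cells leave tissue along sphingosine-1-phosphate, was at 0.986, 2.00, 2.79 and 2.36 CPM in the duodenum and 6.25, 4.21, 5.05 and 7.84 CPM in the ileum (log2 fold change 1.51, edgeR adjusted p = 0.0528). The values did not overlap, and it passed with DESeq2 (adjusted p = 0.00144). Klf2, the transcription factor that drives S1pr1, had means of 2.87 and 7.09 CPM (edgeR adjusted p = 0.0559, and 0.00204 with DESeq2). In single cells S1pr1 was at 2.48 and 4.18 CPM and Klf2 at 7.21 and 10.98 CPM.

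Among 18 inhibitory and costimulatory genes 0 were called and 4 had an unadjusted p below 0.05. For this list and those that follow, the shares over all genes tested are 2.16% and 10.3%. Ctla4, an inhibitory receptor, was between 1.52 and 6.11 CPM in the duodenum and between 9.71 and 13.3 CPM in the ileum (edgeR adjusted p = 0.0723), and at 9.45 and 23.1 CPM in single cells. Pdcd1, which encodes PD-1, had means of 7.64 and 14.9 CPM (adjusted p = 0.11). Of 13 cytokine and chemokine genes 0 were called and 3 had an unadjusted p below 0.05. Ifng was at 12.5 and 26.9 CPM (adjusted p = 0.105), and the chemokine gene Xcl1 at 235, 215, 157 and 326 CPM in the duodenum and 145, 141, 164 and 133 CPM in the ileum (adjusted p = 0.136), with 343 and 215 CPM in single cells. Of 14 ITAM signalling genes 0 were called and 3 had an unadjusted p below 0.05. Tyrobp, the adaptor DAP12 of activating receptors, was at 1012, 679, 641 and 1402 CPM in the duodenum and 590, 214, 294 and 506 CPM in the ileum. Its groups did not overlap, but the duodenal libraries ranged widely (log2 fold change -1.22 ± 0.34, SE; edgeR adjusted p = 0.112), and single cells held 1263 and 719 CPM. In the NK receptor list 1 of 18 (Klrk1) and in the cytokine receptor list 1 of 15 (Il18rap) were called, and of 16 immediate early genes 0 were called, with Egr1 at 52.8 and 79.8 CPM (adjusted p = 0.0607).

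**Figure D4:**
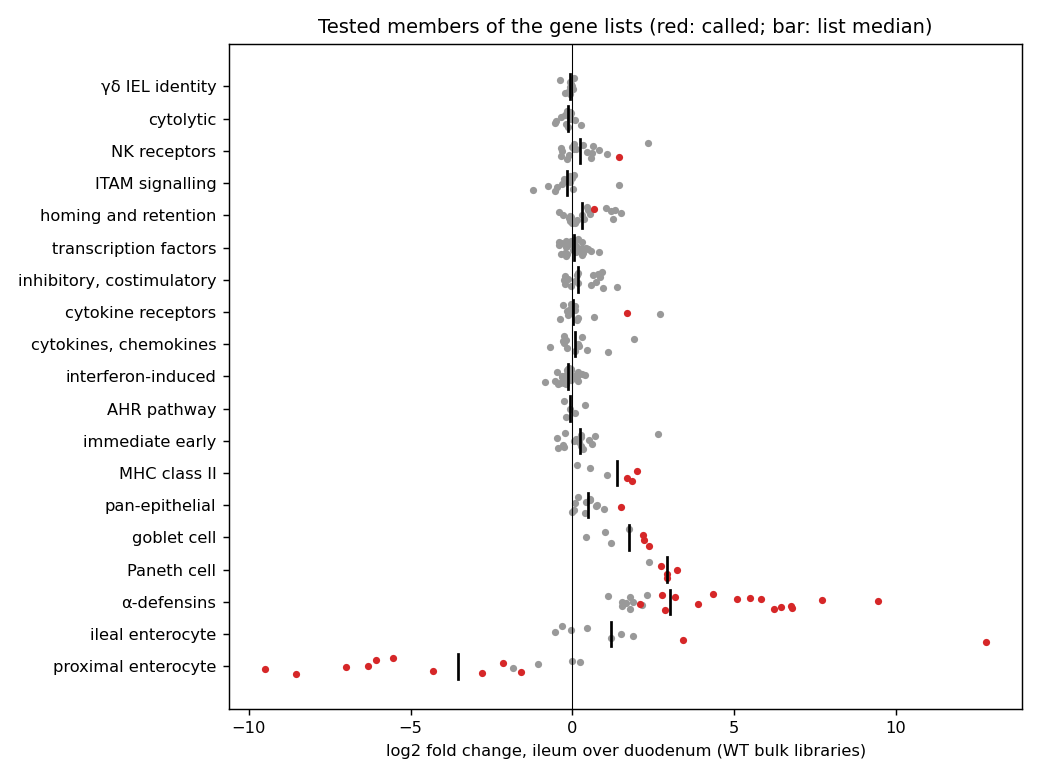
Log2 fold change, ileum over duodenum in WT bulk libraries (x axis), of the tested members of 19 gene lists (y axis), with called genes in red and a bar at each list's median. The lymphocyte lists centre near 0 with 3 called genes in all, while the Paneth, α-defensin, goblet and proximal enterocyte lists lie far from 0.

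The largest differences were of epithelial genes, and most had the same direction in the IEC libraries. Of 9 tested ileal enterocyte genes 2 were called, both higher, compared to 1.15% of all genes tested. Fabp6, the ileal bile acid-binding protein, was at 0, 0.103, 0.0458 and 0.0761 CPM in the duodenal libraries and 391, 587, 554 and 310 CPM in the ileal ones. It was thus almost absent from every duodenal library and abundant in each ileal one (log2 fold change 12.80 ± 0.41, SE; edgeR adjusted p = 2.15e-08). Its mean in IECs was 2.51 CPM in the duodenum and 587 CPM in the ileum. In the ileal single-cell library 4352 of 4499 Fabp6 UMIs (96.7%) lay in the 64 cells with epithelial genes, and the other cells held 7.405 CPM. Slc10a2, the apical bile acid transporter, was low (means of 0.127 and 1.35 CPM) and lost its call without any one of 6 libraries (all but duodenal replicate 1 and ileal replicate 1), with adjusted p up to 0.15.

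Duodenal libraries carried genes of proximal enterocytes, of which 10 of 14 tested fell in the ileum and 0 rose, with a median log2 fold change of -3.54. Of all genes tested, 1.01% fell. Fabp1, the liver-type fatty acid-binding protein, was at 1255, 655, 201 and 403 CPM in the duodenum and 0.700, 1.59, 0.388 and 0.817 CPM in the ileum (log2 fold change -9.50, edgeR adjusted p = 6.38e-05). Among the duodenal libraries replicate 1 was highest and replicate 3 lowest. Rbp2, which binds retinol, followed the same order, at 639, 338, 129 and 240 CPM, and stood at 1.09 to 4.96 CPM in the ileum (edgeR adjusted p = 0.000117). The list's other called members were Apoa4, Apoa1, Apob, Apoc3, Lct, Gata4, S100g and Adh6a, with roles in lipoprotein assembly, lactose digestion, proximal identity, calcium uptake and retinol metabolism. The call on S100g was lost without ileal replicate 3 (adjusted p = 0.056) or ileal replicate 4 (0.0566). Cyp2b10, a xenobiotic-metabolising enzyme, had a mean of 35.9 CPM in the duodenum and 0 counts in all 4 ileal libraries, which makes it at least 194-fold higher in the duodenum against a floor of 3 counts per library. Single γδ IELs, after removal of the cells with epithelial genes, still held 8.19 CPM of Fabp1 and 8.42 CPM of Rbp2 in the duodenum and 0.201 and 0.504 CPM in the ileum. Only 13.4% of the duodenal Fabp1 UMIs lay in the cells removed.

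Paneth cell genes were the most abundant of these transcripts. Of 24 tested α-defensin genes 15 rose in the ileum and 0 fell, with a median log2 fold change of 3.01, and of 5 other Paneth genes 4 rose. Of all genes tested, 1.15% rose. The 31 α-defensin genes of the table summed to 5968, 18898, 5080 and 5928 CPM in the duodenum and 30646, 110110, 35308 and 63382 CPM in the ileum. Ileal replicate 2 was the highest of its group, and duodenal replicate 2 the highest of the other. Individual α-defensin genes are near-identical copies, so the split of reads between them is uncertain and the 15 calls are not separate observations. Defa5, one of the more distinct, was at 61.0, 125, 39.0 and 31.9 CPM in the duodenum and 689, 2406, 774 and 1386 CPM in the ileum (log2 fold change 4.35 ± 0.53, SE; edgeR adjusted p = 0.00108). Lyz1, Paneth cell lysozyme, was at 597, 3177, 1251 and 885 CPM in the duodenum and 5392, 16924, 6051 and 16413 CPM in the ileum (edgeR adjusted p = 0.0193), and it lost the call without duodenal replicate 1, 3 or 4 or ileal replicate 4 (0.0505 to 0.0674). The other Paneth genes called were Ang4, Mmp7 and Pla2g2a. Like that of Lyz1, their calls were lost in the fit over all 22 γδ IEL libraries. Ang4 also lost its call without duodenal replicate 1, 3 or 4 (edgeR adjusted p from 0.0502 to 0.057). In the single-cell libraries 15643 of 16027 ileal α-defensin UMIs (97.6%) and 4366 of 4457 duodenal ones lay in the few cells with epithelial genes.

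**Figure D5:**
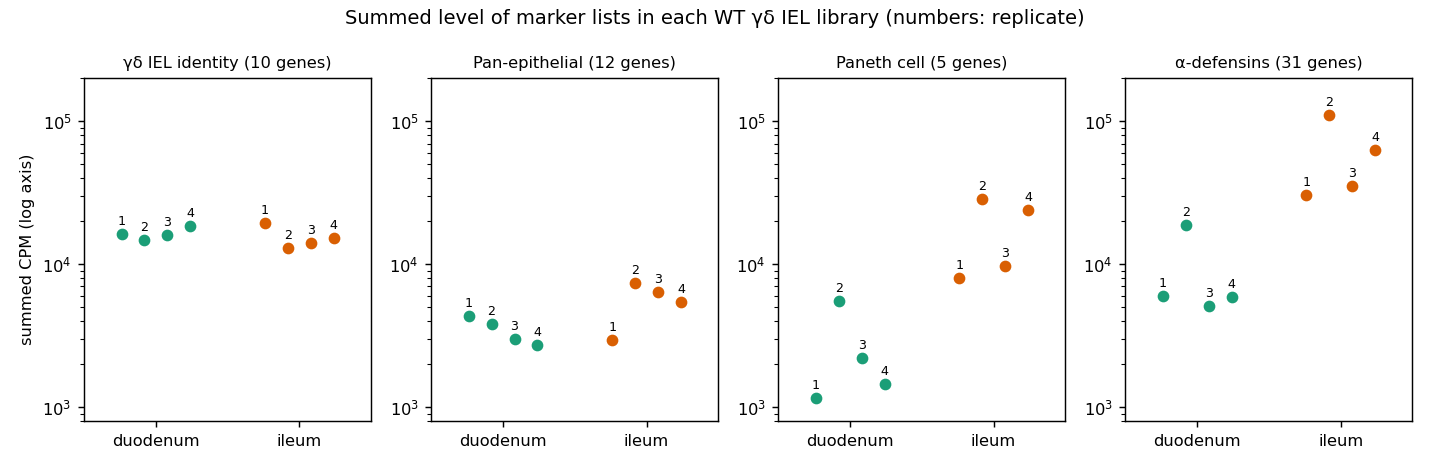
Summed level in CPM (y axis, log scale) of γδ IEL identity, pan-epithelial, other Paneth cell and α-defensin genes in each WT γδ IEL bulk library, numbered by replicate. The identity genes are level between segments, the pan-epithelial sum overlaps, and the Paneth and α-defensin sums of all 4 ileal libraries exceed those of all 4 duodenal libraries.

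Of 7 goblet cell genes 3 rose, compared to 1.15% of all genes tested. These were the mucin gene Muc2 (means of 33.1 and 172 CPM), Clca1 (88.1 and 405 CPM) and Agr2 (245 and 1119 CPM). The call on Agr2 was lost in 6 of the 8 analyses that left out 1 library, all but those without duodenal replicate 2 or ileal replicate 1. Reg3b, which encodes an antibacterial lectin, was at 330, 211, 261 and 378 CPM in the duodenum and 471, 1449, 1981 and 4783 CPM in the ileum (edgeR adjusted p = 0.0168, and 0.052 and 0.0599 without duodenal replicate 1 or 2). Of the MHC class II list, 3 of 6 genes rose, H2-Aa, H2-Ab1 and Cd74, compared to 1.15% of all genes tested. Cd74, the invariant chain, was at 174, 64.5, 129 and 149 CPM in the duodenum and 310, 720, 606 and 434 CPM in the ileum (log2 fold change 2.00, edgeR adjusted p = 0.00642). In IECs its means were 223 and 802 CPM. In single γδ IELs it was level, at 33.7 and 39.1 CPM, and 49.5% of its ileal UMIs were in the 64 cells removed. Of the 12 pan-epithelial genes only Krt18 rose (94.4 ± 22.1 to 265 ± 102 CPM, SD, n = 4 each; edgeR adjusted p = 0.0162), and that call was lost without duodenal replicate 4 (0.0589) or ileal replicate 3 (0.0578). Vil1, a brush border protein, was level at 95.5 and 98.9 CPM, but 11 of the 12 genes had a positive log2 fold change (list median 0.49). An unadjusted p below 0.05 (edgeR) was reached by 4 of the 12, compared to 10.3% of all genes tested.

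Of the 96 near-absent genes that rose in the ileum, 87 were also more than 1.5-fold higher in ileal than in duodenal IECs, and of the 85 that fell, 80 were also lower by that much. For all near-absent genes tested these shares were 20.2% and 23.2%, and for all genes tested 8.99% and 7.24%. The near-absent genes as a whole had a median log2 fold change of 0.33, compared to -0.03 for the held genes. In a fit over all 22 γδ IEL libraries 61 of the 181 near-absent calls remained, and those of Lyz1, Muc2, Clca1, Agr2, Reg3b, Krt18, Gata4, Cd74 and H2-Ab1 were among those lost, while Fabp6, Fabp1, Rbp2 and Defa5 kept theirs. Without ileal replicate 1, 252 near-absent genes were higher, and without ileal replicates 3 or 4 the lower count was 52 or 54.

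The jejunum, which lies between both segments, was intermediate for most of the held calls. On a scaling over all 22 γδ IEL bulk libraries, the jejunal mean lay between the other 2 for 15 of the 19 higher and 15 of the 18 lower held genes. It was nearer to the duodenum for 13 of the 19 higher genes and nearer to the ileum for 11 of the 18 lower genes. Socs3, for example, had a jejunal mean of 18.4 ± 1.12 CPM, Klrk1 of 10.5 ± 5.43 CPM and Frmd5 of 4.01 ± 0.672 CPM (SD, n = 4). The held calls were chosen because their ileal and duodenal values lay apart. A jejunal mean between them was therefore likely in any case, and a gradient along the gut was not tested. The share of intermediate means among held genes that were not called was not measured.

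The contrast was repeated in Btnl2-KO γδ IELs, 3 ileal against 3 duodenal libraries. Btnl2 itself had means of 5.99 ± 2.08 and 2.88 ± 0.433 CPM in WT duodenum and ileum (SD, n = 4 each) and of 0 and 0.0412 CPM in the KO libraries. It had 0 UMIs in the single WT γδ IELs left once cells with epithelial genes were set aside (upper 95% limits of 0.173 and 0.186 CPM) and was at 50.6 and 25.7 CPM in duodenal and ileal IECs. None of the 5 butyrophilin-like genes was called between WT segments, and 1 had an unadjusted p below 0.05, compared to 2.16% and 10.3% of all genes tested. In KO, 16 (0.128%) of 12477 genes were higher and 47 (0.377%) lower (edgeR, same thresholds), and 89 and 379 with DESeq2. Of the 271 genes called in WT, 45 were called in the same direction in KO (123 when KO was tested with DESeq2). All 19 higher held genes had a positive KO log2 fold change and 17 of the 18 lower ones a negative one, compared to 57.9% and 42.1% of all genes. At an unadjusted p below 0.05 these were 13 and 12, compared to 3.10% and 6.58% of all genes. Socs3, Ryr1, Wnt11, Ckb and Casp6 were called, with Socs3 at means of 5.95 and 28.4 CPM in KO duodenum and ileum (edgeR adjusted p = 0.0318).

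Of the near-absent genes, 32 of the 96 higher and 82 of the 84 lower ones measured in KO had an unadjusted p below 0.05 in the same direction, and 11 and 28 were called. Fabp6 was at 0.164 and 110 CPM in KO duodenum and ileum, and Fabp1 at 400 and 0.926 CPM. Lyz1 had KO means of 2423 and 3127 CPM in duodenum and ileum (edgeR adjusted p = 0.912), and Muc2 of 50.03 and 69.9 CPM (0.665). The difference between the WT and the KO contrast, tested as an interaction in edgeR over 14 libraries, reached an adjusted p below 0.05 for 0 of 13119 genes, with 1213 (9.25%) at an unadjusted p below 0.05. Of the near-absent calls, 68 of the 96 higher and 11 of the 85 lower genes had an unadjusted interaction p below 0.05, and of the held calls 5 of 19 and 1 of 18. These genes were called on WT libraries that also enter the interaction, so the shares are no independent test.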

How the data were processed

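Bulk values were RSEM expected counts per gene on the sense strand of exons, which the authors made after mapping with ArrayStudio and deposited (build GRCm38 per the submitters' processing notes). The labels and the study's methods name different library kits. Single-cell values were deposited UMI counts per cell, made by the authors with Cell Ranger. No doublet caller was run, and doublets were addressed only by setting aside cells with epithelial genes. Single-cell levels are given without those cells, a choice made after the data were seen. Expected counts were rounded, 1 column that matched no sample was left out, and counts without a gene symbol (0.492% to 2.39% of a library) were not used. Genes with at least 10 counts in at least 4 of the 8 libraries were tested with edgeR 4.0.16 (R 4.3.3), with TMM scaling, glmQLFit and glmQLFTest, no covariates and Benjamini-Hochberg adjustment. The KO contrast used the same test with at least 10 counts in at least 3 libraries. Standard errors came from the edgeR fit, and single-cell intervals are exact Poisson limits at 95% (scipy 1.17.1), which cover counting error only. Replicates differed by more than sampling noise (for each pair, chi-square over its degrees of freedom was 36.2 or more).

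The members and gene lists were chosen with earlier results of these data known, and the single-cell classes (pseudocount 0.5 CPM on both levels) after these data were seen. The IEC class used the highest segment mean over duodenum, jejunum and ileum, with the same pseudocount. Named genes were list members and, for each IEC class and direction, up to 10 called genes with the largest fold change, no overlap and a mean of at least 5 CPM. Other genes held by single cells, and the heat shock genes, were chosen with their values in view. The alternatives tried were DESeq2 1.42.0, limma 3.58.1 (voom with quality weights), other scalings and filters, a fit over all 22 γδ IEL libraries, a pan-epithelial covariate, other class thresholds, and leaving out each library. Scripts were tested on simulated data. Symbols were matched to the single-cell table for 12484 of the 12535 tested genes. The labels give no batch for these libraries. The authors' own comparisons were not used. The promoters come from the RefSeq table.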

Additional observations from a re-analysis of the deposited data

Results flagged for a closer look

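Of 246 groups of 4 libraries tested with Dixon's ratio (the gap of the most extreme library to its neighbour over the group's range, on log2(CPM + 1) values, critical value 0.829), 8 held a library that stood apart. Chance alone marks about 1 in 20 groups. In WT ileum a library was lowest for the cell cycle list (ratio 0.9459), the αβ T cell list (0.9394), the butyrophilin-like list (0.85), the goblet cell gene Agr2 (0.8794) and the proximal factor Gata4 (0.8432). For all of these except the αβ T cell list, that library was ileal replicate 1, which also had the lowest pan-epithelial sum of its group, and for the αβ T cell list it was ileal replicate 2. For Onecut2, called lower in the ileum, ileal replicate 2 alone was above 0 (ratio 1), with a single count. In WT duodenum, duodenal replicate 2 was highest for the α-defensin sum (0.8773) and for Trf (0.8764).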

How the results depend on the processing

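Of 204 alternative values of the counts and levels above, 129 stayed within the limits set for a change and 75 moved. Most of these values are counts of genes, which cannot change direction. The pan-epithelial difference, which can, stayed positive in every alternative. Among all genes, higher and lower calls were 291 and 211 with DESeq2, 309 and 235 with limma-voom and 60 and 65 in a fit over all 22 γδ IEL libraries, and 273 were lower with the pan-epithelial level as a covariate. IEL-leaning higher calls were 36 with DESeq2, 31 with voom, 29 with the covariate, 33 and 8 with class thresholds of 2-fold and 8-fold, and 6 with the class taken from jejunal libraries, and lower calls were 33 with DESeq2 and 56 with voom. Epithelium-leaning higher calls were 67 with DESeq2, 69 with voom, 4 over 22 libraries, 18 with the covariate, 56 and 9 at the 2-fold and 8-fold class thresholds and 54 with the jejunal class. Epithelium-leaning lower calls were 55 with DESeq2, 20 with TMM factors from IEL-leaning genes, 7 over 22 libraries, 80 with the covariate, and 60 and 15 at the 2-fold and 8-fold thresholds. Genes held by single cells numbered 57 higher and 59 lower with DESeq2 and 56 and 97 with voom, and 10 were higher when held meant within 2-fold. Near-absent higher calls were 153 with DESeq2, 172 with voom and 27 over 22 libraries, and lower calls 34 over 22 libraries, 187 with the covariate and 47 when all barcodes set the class. The single-cell alternatives were chosen after seeing the data. Calls shared with KO numbered 123 with DESeq2 used for KO.

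Leaving out 1 library at a time gave 88 to 429 higher and 68 to 189 lower genes, 11 to 26 and 5 to 52 IEL-leaning, 15 to 102 and 20 to 37 epithelium-leaning, 5 to 61 and 6 to 71 held, and 66 to 252 and 52 to 93 near-absent ones. The pan-epithelial difference ranged from 0.29 to 0.73. Of the 37 held calls, 11 (without ileal replicate 3) to 35 (without ileal replicate 1) remained, and 24 under each of the fit over 22 libraries, the scaling by IEL-leaning genes and the covariate. No paired analysis was possible because the labels do not say which duodenal and ileal libraries share mice.

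Each library was a pool of mice, so spread between animals was not measured. The single-cell libraries have no replicates, overlap the bulk samples in source and cover 5′ ends, which limits the class of genes with few or copy-shared 5′ tags. Genes under 10 counts in most libraries were not tested.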

Other observations

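The single-cell libraries also differed in transcripts of another cell type, in a way that bulk libraries did not. Mcpt1 and Mcpt2, proteases of mucosal mast cells, had 0 UMIs in the duodenal single cells and 4216 and 1579 UMIs in the ileal ones, that is 212 CPM (95% exact Poisson interval 206 to 219) and 79.5 CPM (75.7 to 83.6). In the WT bulk libraries Mcpt1 was at 9.54, 4.46, 10.98 and 13.3 CPM in the duodenum and 0, 11.9, 26.1 and 1.36 CPM in the ileum (edgeR adjusted p = 0.995), so the ileal libraries ranged more widely than the groups differed. Fcer1a, which encodes a chain of the IgE receptor, had 0 and 99 UMIs. Kit, which γδ IELs and mast cells both express, was level in single cells, at 67.9 and 67.5 CPM. How many cells carried these UMIs was not examined.

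Proliferation genes stood higher in 3 of the 4 ileal libraries without a call. The 16 cell cycle genes summed to 869, 1036, 943 and 864 CPM in the duodenum and 648, 1400, 1449 and 1387 CPM in the ileum, with ileal replicate 1 below every duodenal library. All 16 log2 fold changes were positive (median 0.46), 0 were called and 1 had an unadjusted p below 0.05 (edgeR), compared to 2.16% and 10.3% of all genes tested. In single γδ IELs the sum was 248 CPM in the duodenum and 314 CPM in the ileum. Mki67 had means of 42.4 and 53.8 CPM in γδ IEL libraries and of 387 and 596 CPM in IECs of duodenum and ileum. The part of epithelial RNA in the bulk sums was not tested.

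Some epithelial genes were at 0 counts in all 4 libraries of a segment. Slc5a8, a monocarboxylate transporter, and Hoxb9, a homeobox gene of the posterior body axis, were at 0 in every duodenal library, and at least 33.8-fold and 19.0-fold higher in the ileum against a floor of 3 counts per library. Slc2a2, the basolateral glucose transporter GLUT2, was at 0 in every ileal library and at least 24.97-fold lower there than in the duodenum. In IECs the means in duodenum and ileum were 5.05 and 119 CPM for Slc5a8, 0.0869 and 16.1 CPM for Hoxb9, and 98.8 and 8.12 CPM for Slc2a2. These genes were named after their values were seen.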
